A study of Homo sapiens with 4 samples.

Results

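The genes of glycolysis and of the hypoxia response were followed in COLO205 cells exposed to nonylphenol (NP). The set holds 36 genes, picked by gene symbol from the 19970 genes of the deposited table. The rule itself uses no measured value, but the list was drawn up with earlier results of these data known. It comprises 21 glycolytic enzymes and transporters, 4 regulators of glycolytic flux and 11 genes of the HIF (hypoxia-inducible factor) pathway. COLO205 is an established human colon adenocarcinoma line, and NP is an alkylphenol used in surfactant production that has estrogenic activity. All cells grew in RPMI-1640 medium with fetal bovine serum. The 2 control samples received no NP, and the 2 NP samples received NP at 1 µM, each for 24 h. The paper dissolved NP in DMSO and names DMSO as the control treatment of its proliferation assays. The contrast therefore covers 1 cell line, 1 dose and 1 time point. The sources do not say whether the samples of a group were separate cultures, so the p-values speak only to the spread among the 4 samples, and that spread could be technical.

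Glycolysis splits glucose into pyruvate in the cytosol, and lactate dehydrogenase converts pyruvate to lactate, which monocarboxylate transporters carry out of the cell. Many tumour cells run this route at a high rate even when oxygen is present. When oxygen is scarce, the prolyl hydroxylases of the EGLN family no longer mark HIF-1α for degradation, and HIF then raises the transcription of glucose transporters, most glycolytic enzymes and a set of stress genes. The glycolytic genes and the HIF-regulated stress genes are therefore described apart.

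The libraries held 13401691 to 16998129 counts, of which the top 10 genes made up 6.26% to 6.42%. All 10 markers of colon epithelium fixed for this check had counts, with a summed level of 6600 to 6740 CPM (counts scaled by library size). Of 10 markers of immune, stromal and endothelial cells, 3 had no count in any library and the highest count of the others was 56. Over the 12616 genes with enough counts to test, edgeR's quasi-likelihood test called 4.06% in either direction at an adjusted p under 0.05, 2.35% higher and 1.7% lower in NP. Shorter genes tended to have higher values in NP: the median log2 fold change was 0.043 in the 2524 shortest tested genes (up to 2933 nt) and -0.032 in the 2524 longest (from 8415 nt). Offsets for gene length bring these medians to -0.0054 and -0.0020.

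In NP-treated cells, 4 genes of the glucose-to-lactate route changed by small amounts, and not all in the same direction. The glucose transporter gene SLC2A1 fell by 9.37%, the glucose-6-phosphate isomerase gene GPI fell by 10.6% and the lactate exporter gene SLC16A3 fell by 8.61%, while the lactate dehydrogenase gene LDHA rose by 9.28%. NDRG1, a stress gene induced by hypoxia, fell by 20.3%, the widest change among the members that passed. HIF1A, the gene of the oxygen-regulated subunit, had a log2 fold change of 0.0039 (95% interval -0.071 to 0.079). Of the 34 members that could be tested, 1 rose, 4 fell and 29 did not pass, so that 14.7% were called beside the 4.06% over all genes. These shares are not matched for level, and many members have high counts, where a smaller change can pass. The median log2 fold change of the tested members was -0.04, beside 0.0015 over all genes. DESeq2 gave an adjusted p for only 23 of the 34 members after its own filter, and called 4 of them, SLC2A1, GPI, LDHA and NDRG1. Over all genes it called 190 of the 4300 that had an adjusted p. In bulk RNA, a change in every cell and a change in the share of some cells cannot be told apart.

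The members spanned a wide range of levels in COLO205 cells. On the FPKM scale (counts scaled by gene length and library size), the 4-sample means of GAPDH, PKM and ENO1 were 787, 371 and 338. These genes encode glyceraldehyde-3-phosphate dehydrogenase, pyruvate kinase M and enolase 1, all of the lower part of the route. PGK1 (phosphoglycerate kinase) and TPI1 (triosephosphate isomerase) followed at 151 and 148 FPKM, and their sample ranges overlapped. SLC2A1 reached 97.2 FPKM, LDHA 71.1 and PGAM1 (phosphoglycerate mutase) 69.9. LDHA and PGAM1 could not be ordered, since LDHA lay below PGAM1 in the control samples and above it in the NP samples. Among the HIF pathway genes, the peptide hormone gene ADM was at 50.9 FPKM, VEGFA at 44.8 and HIF1A at 41.9. At the other end stood ALDOA at 0.25 FPKM, SLC2A3 at 0.061 and LDHB, which had no count. The order of levels depends on the deposited gene lengths, such as 2396 nt for GAPDH and 8571 nt for PKM. In CPM, which takes no account of length, PKM lay above GAPDH, with control means of 3237 and 1912.

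**Figure D1:**
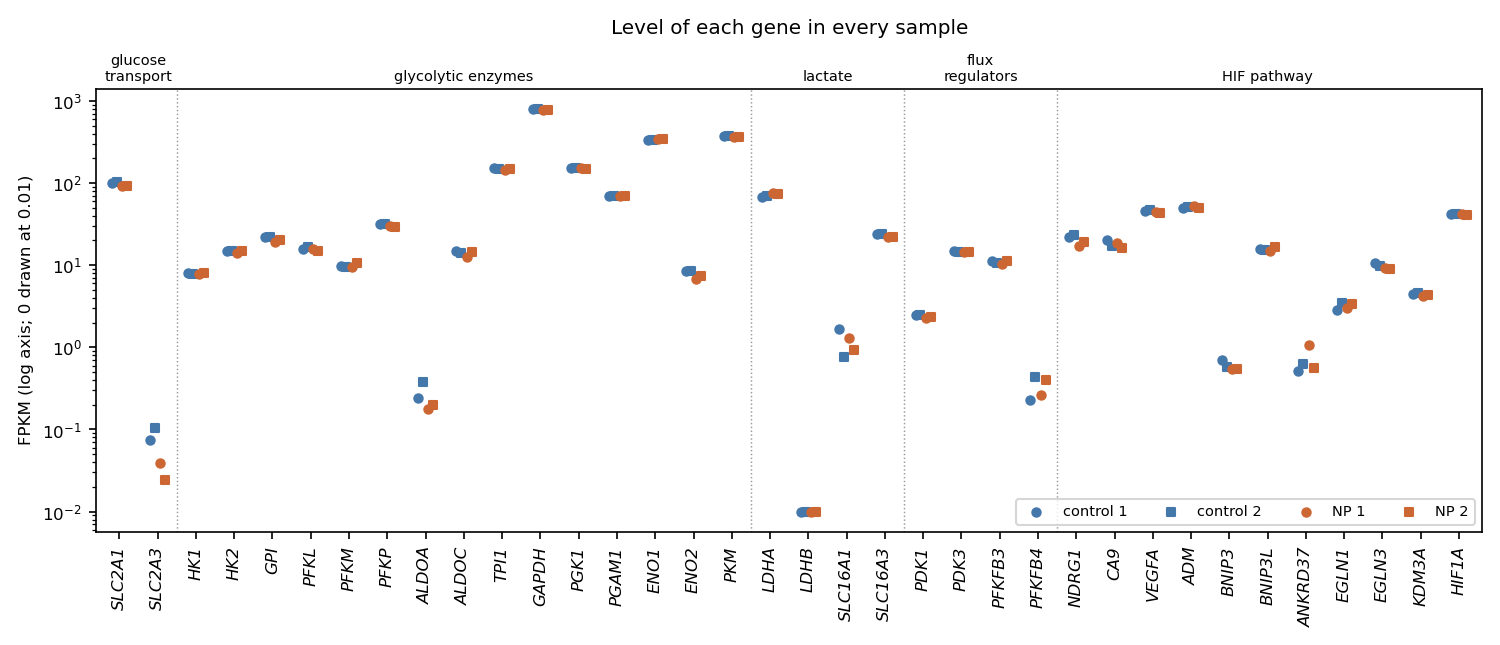
FPKM of the 36 genes in each of the 4 samples, on a log axis, ordered by role. Values run from GAPDH, with a mean of 787, down to LDHB, which is 0 in every sample and is drawn at 0.01 to fit the axis; in most genes the 4 points nearly coincide.

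Within several of the isoenzyme sets compared here, a single gene carried nearly all of the RNA per length. Most sums held only members of the list, so they are not shares of a whole family. PDK2, for instance, of 5471 nt, was at 31.5 to 33.0 CPM over the 4 samples and is in no sum. PDK1, of 14845 nt, was at 34.4 to 37.1 CPM, so per length PDK2 lay above PDK1. Of the summed FPKM of ENO1, ENO2 and ENO3, ENO1 held 96.3% to 97.0% in every sample. SLC2A1 held at least 99.9% of the sum with SLC2A3, and SLC16A3 held 93.5% to 97.0% of the sum with SLC16A1, both of which encode lactate transporters. PFKFB3 held 96.0% to 98.0% of the sum with PFKFB4, and BNIP3L 95.7% to 96.8% of the sum with BNIP3. Other sets were more evenly shared. PFKP, the platelet-type phosphofructokinase gene, held 53.3% to 55.1%, beside 27.4% to 29.2% for the liver-type PFKL and 16.4% to 19.3% for the muscle-type PFKM. PDK3 held 85.4% to 86.4% of the sum with PDK1, and EGLN3 72.2% to 78.9% of the sum with EGLN1. The share of PDK3 is uncertain, since its deposited length is 13555 nt where GENCODE release 29 gives 4951 exonic bases. HK1 and HK2 together were not the main hexokinases by this measure: HKDC1, a hexokinase-domain gene outside the set, held 75.8% to 77.7% of the summed FPKM of these 3 genes.

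LDHB encodes the lactate dehydrogenase subunit that is common in heart. It had 0 counts among the 61677544 counts of the 4 libraries, while LDHA had 5934 to 7686 counts in each. The annotation of GENCODE release 29 places 33.4% of the exonic bases of LDHB under a same-strand gene, AC010197.2, which also had 0 counts. Reads in such shared bases can be dropped by gene counting, so a floor of 3 counts over the 4 libraries was set on the 1987 exonic bases under no other gene. If the counting used the same exons, LDHB was on this floor under 0.0245 FPKM, and LDHA was at least 2910-fold higher per length. The annotation release behind the counts is not given in the sources used here, so this bound is uncertain. The part of dropped reads in the count of 0 was not tested. ALDOA, the gene of an aldolase found in most tissues, had only 21 and 33 counts in control and 17 and 15 in NP. Of its exonic bases, 53.5% lie under other genes, chiefly the same-strand gene AC093512.2 with 21 to 36 counts per library. The level of ALDOA and its share beside ALDOC are therefore uncertain, and the part of the overlap in them was not tested.

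Promoter sequence was read for the 31 of 36 members matched in a promoter table from RefSeq (GRCh38.p14; not matched were BNIP3L, NDRG1, SLC16A1, SLC2A3 and VEGFA), as windows of 250 bases before and 50 after each annotated start. ACGTG, the usual core of the hypoxia response element to which HIF binds, was searched on both strands. It stood in 23 of 59 member windows (39%), beside 21.4% of all 35116 windows and 25.2% of the 14832 windows of tested genes. GCGTG, the other core letters, stood in 25 of the 59 (42.4%), beside 36.5% of all windows and 47.7% of those of tested genes. Counted by gene, ACGTG stood in 19 of the 31 members (61.3%), beside 32.2% of tested genes. By the same count GCGTG stood in 20 (64.5%), beside 57.7%, so its direction depends on the unit counted. Some members have several windows, which can overlap. No member window had both cores sharing bases. The 200 bases before the start are shown for the 4 called members among these, because these 4 genes of the same route differed in direction. Capitals mark matches to ACGTG or to CACGT, its reverse complement. SLC2A1 is chr1:42958869-42959068 on the minus strand, GPI chr19:34364792-34364991, LDHA chr11:18394363-18394562 and SLC16A3 chr17:82228842-82229041, all 3 on the plus strand. For LDHA and SLC16A3, which have 2 and 5 windows, the window with the most ACGTG matches was taken.
SLC2A1: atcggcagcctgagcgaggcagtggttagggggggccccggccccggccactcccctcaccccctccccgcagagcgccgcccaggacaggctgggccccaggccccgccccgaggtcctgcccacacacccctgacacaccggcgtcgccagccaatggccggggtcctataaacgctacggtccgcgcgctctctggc
GPI: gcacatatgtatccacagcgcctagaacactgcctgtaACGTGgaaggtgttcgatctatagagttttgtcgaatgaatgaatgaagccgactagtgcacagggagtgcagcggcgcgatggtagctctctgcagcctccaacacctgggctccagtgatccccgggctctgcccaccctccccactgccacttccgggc
LDHA: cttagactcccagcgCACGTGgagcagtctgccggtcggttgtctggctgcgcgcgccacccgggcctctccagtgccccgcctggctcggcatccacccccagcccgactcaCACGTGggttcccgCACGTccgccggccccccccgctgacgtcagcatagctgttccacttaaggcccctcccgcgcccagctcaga
SLC16A3: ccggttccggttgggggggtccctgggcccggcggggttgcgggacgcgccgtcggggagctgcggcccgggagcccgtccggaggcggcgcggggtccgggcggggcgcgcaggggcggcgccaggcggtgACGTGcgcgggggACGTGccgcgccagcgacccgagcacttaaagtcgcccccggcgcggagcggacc
The LDHA stretch held 5 matches, since CACGTG reads as the core on each strand, and the SLC16A3 stretch held 2. GPI held 1 and SLC2A1 none. In the stretches shown, LDHA, which rose, and GPI and SLC16A3, which fell, had the core. For LDHA and SLC16A3 this rests on the choice of window, since their other windows had no ACGTG match. A match to 5 letters is a description and no evidence of binding.

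SLC2A1 encodes GLUT1, the main glucose transporter of most tumour cells (ENSG00000117394, chr1:42925375-42958868 in the deposited table, GRCh38). It had 444 and 456 CPM in the control samples and 407 and 409 CPM in the NP samples. Both NP samples lay below both control samples, and the groups did not overlap. Its group mean moved from 450 ± 8.50 to 408 ± 1.18 CPM (SD, n = 2 each), which is a log2 fold change of -0.14 (SE 0.031, 95% interval -0.20 to -0.080, adjusted p = 0.00198 in edgeR's quasi-likelihood test). SLC2A3, which encodes the neuronal-type transporter GLUT3, had too few counts for the test, with 7 and 10 counts in control and 4 and 2 in NP. The ratio of its summed counts, scaled by library totals, was 0.365 (exact 95% interval 0.118 to 0.970, counting error only). Reads of SLC2A3 can also match its close copy SLC2A14.

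**Figure D2:**
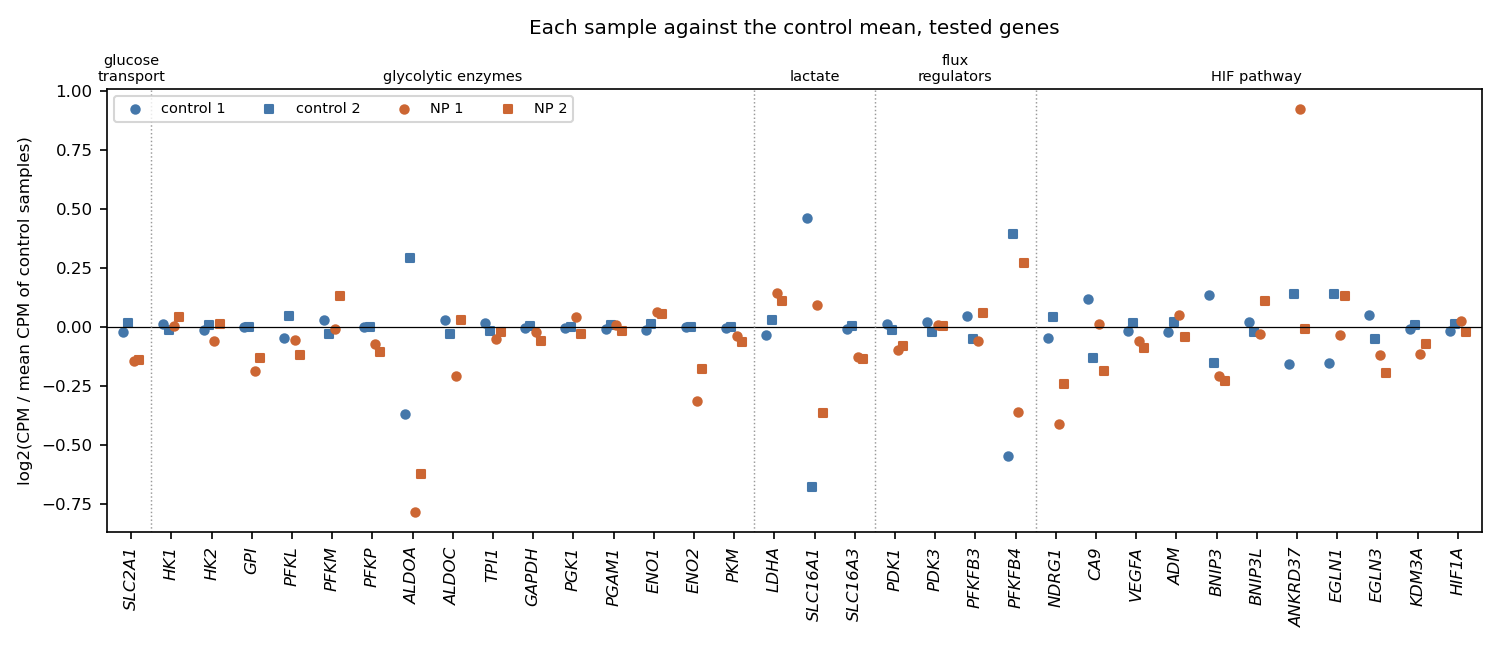
log2 of each sample's CPM over the mean CPM of the control samples, for the 34 tested genes, ordered by role, with control in blue and NP in orange. The NP points of SLC2A1, GPI, SLC16A3 and NDRG1 lie below both control points, and those of LDHA above. In all, 16 of the 34 genes have both NP points below and 2 have both above, beside 21.7% and 22.5% of all tested genes. ALDOA, SLC16A1, PFKFB4 and ANKRD37, all with low counts, scatter most.

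The 15 glycolytic enzymes were all tested. GPI fell, 14 did not pass and none rose, so that 6.67% were called (adjusted p in edgeR; before adjustment 1 was higher and 4 were lower at p under 0.05, where 8.17% of all tested genes were higher and 6.97% lower). In 8 of the 15 both NP samples lay below both control samples and in 1 they lay above, beside 21.7% and 22.5% of all tested genes. The median log2 fold change of the enzymes was -0.04. Along the route, hexokinases phosphorylate glucose, and HK1 was at 49.3 to 51.3 CPM and HK2 at 84.1 to 88.3 CPM over all 4 samples, with overlapping groups. GPI, which turns glucose 6-phosphate into fructose 6-phosphate (ENSG00000105220, chr19:34359480-34402413), was at 234.4 and 234.0 CPM in control and 205.7 and 213.7 CPM in NP. Each NP sample was lower than each control sample. Its group mean moved from 234.2 ± 0.339 to 209.7 ± 5.63 CPM (SD, n = 2 each), which is a log2 fold change of -0.16 (SE 0.037, adjusted p = 0.0036 in edgeR). Without NP sample 1, the lower of the NP samples, it was -0.13 and did not pass (adjusted p = 0.155 in edgeR).

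The phosphofructokinases commit the sugar to glycolysis. PFKP was at 174.2 and 174.5 CPM in control and 166.1 and 162.3 CPM in NP, with no overlap, but did not pass (log2 fold change -0.09, adjusted p = 0.284 in edgeR). PFKL had a log2 fold change of -0.08 with adjusted p = 0.36, and PFKM one of 0.06 with adjusted p = 0.706 (both edgeR). The aldolases split fructose 1,6-bisphosphate. ALDOA had a log2 fold change of -0.70 with a 95% interval of -1.51 to 0.10 (adjusted p = 0.429 in edgeR), and ALDOC, at 32.6 to 38.3 CPM, had one of -0.09. TPI1, which interconverts the triose phosphates, was at 389.6 to 408.2 CPM with a log2 fold change of -0.04.

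GAPDH, which the study used as the internal reference in quantitative PCR, was at 1906 and 1918 CPM in control and 1886 and 1836 CPM in NP. The NP samples lay just below the control samples. Its group mean moved from 1912 ± 8.46 to 1861 ± 35.6 CPM (SD, n = 2 each), and the log2 fold change was -0.04 (95% interval -0.088 to 0.0094, adjusted p = 0.479 in edgeR). With offsets for gene length it was -0.08 and passed (adjusted p = 0.0205 in edgeR), a setting under which this gene of 2396 nt is set against genes of like length. PGK1 ranged from 799.7 to 841.3 CPM and PGAM1 from 175.9 to 179.1 CPM, with overlapping groups and log2 fold changes of 0.0076 and -0.0034. These intervals were narrow, at -0.049 to 0.064 for PGK1 and -0.082 to 0.075 for PGAM1.

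ENO1 and PKM, the most abundant of the enzymes after GAPDH on the FPKM scale, had opposite signs at small size. ENO1 was at 1714 and 1745 CPM in control and 1805 and 1795 CPM in NP (log2 fold change 0.06, adjusted p = 0.21 in edgeR). PKM was at 3231 and 3242 CPM in control and 3155 and 3095 CPM in NP (log2 fold change -0.05, adjusted p = 0.256 in edgeR). Neither passed, although in each the groups did not overlap. ENO2, the neuron-type enolase, was at 35.97 and 36.04 CPM in control and at 29.01 and 31.83 CPM in NP. Its log2 fold change of -0.25 (SE 0.083) did not pass (adjusted p = 0.0769 in edgeR). Several of these enzymes, GAPDH, PGK1, PGAM1, TPI1, ENO1 and PKM, and also LDHA, have processed pseudogenes, and how the counting treated reads shared with such copies is not given in the sources used here.

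LDHA, whose enzyme makes lactate from pyruvate (ENSG00000134333, chr11:18394560-18408425), was the only member that rose. It had 401.9 and 419.7 CPM in the control samples and 454.1 and 443.3 CPM in the NP samples, and both NP samples lay above both control samples. The mean moved from 410.8 ± 12.6 to 448.7 ± 7.60 CPM (SD, n = 2 each), a rise of 9.28% and a log2 fold change of 0.13 (SE 0.032, 95% interval 0.065 to 0.19, adjusted p = 0.00776 in edgeR). The call was lost without control sample 1 (0.10, adjusted p = 0.201) and without NP sample 1 (0.11, adjusted p = 0.173, both edgeR). SLC16A3 encodes MCT4, which exports lactate (ENSG00000141526, chr17:82228397-82261129). It had 216.5 and 218.5 CPM in control and 199.4 and 198.1 CPM in NP, with both NP samples lower. Its group mean moved from 217.5 ± 1.45 to 198.8 ± 0.985 CPM (SD, n = 2 each), which is a log2 fold change of -0.13 (SE 0.038, adjusted p = 0.0304 in edgeR). This call was near the threshold: it was lost in DESeq2 (adjusted p = 0.132), with offsets for gene length (-0.11, adjusted p = 0.0851 in edgeR) and when each of the 4 samples was left out in turn (adjusted p from 0.114 to 0.158 in edgeR). SLC16A1, the gene of the related transporter MCT1, had 135 and 61 counts in control and 113 and 65 in NP. The control samples differed from each other by more than the groups did, and it did not pass (log2 fold change -0.10, 95% interval -0.53 to 0.33).

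The count ratios of LDHA to SLC2A1, GPI and SLC16A3 were taken within a library and so are free of any scaling. LDHA to SLC2A1 was 0.905 and 0.920 in control and 1.11 and 1.08 in NP. LDHA to GPI was 1.71 and 1.79 in control and 2.21 and 2.07 in NP. LDHA to SLC16A3 was 1.86 and 1.92 in control and 2.28 and 2.24 in NP. These ratios were formed after the direction of each gene had been seen. With LDHA higher and the other genes lower in both NP samples, the control and NP ratios could not overlap. The ratios thus show the size of the shift and add no support for a separation. Relative to GAPDH, LDHA was at 0.211 and 0.219 in control and at 0.241 and 0.242 in NP, while SLC2A1 was at 0.233 and 0.238 in control and at 0.216 and 0.223 in NP.

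**Figure D3:**
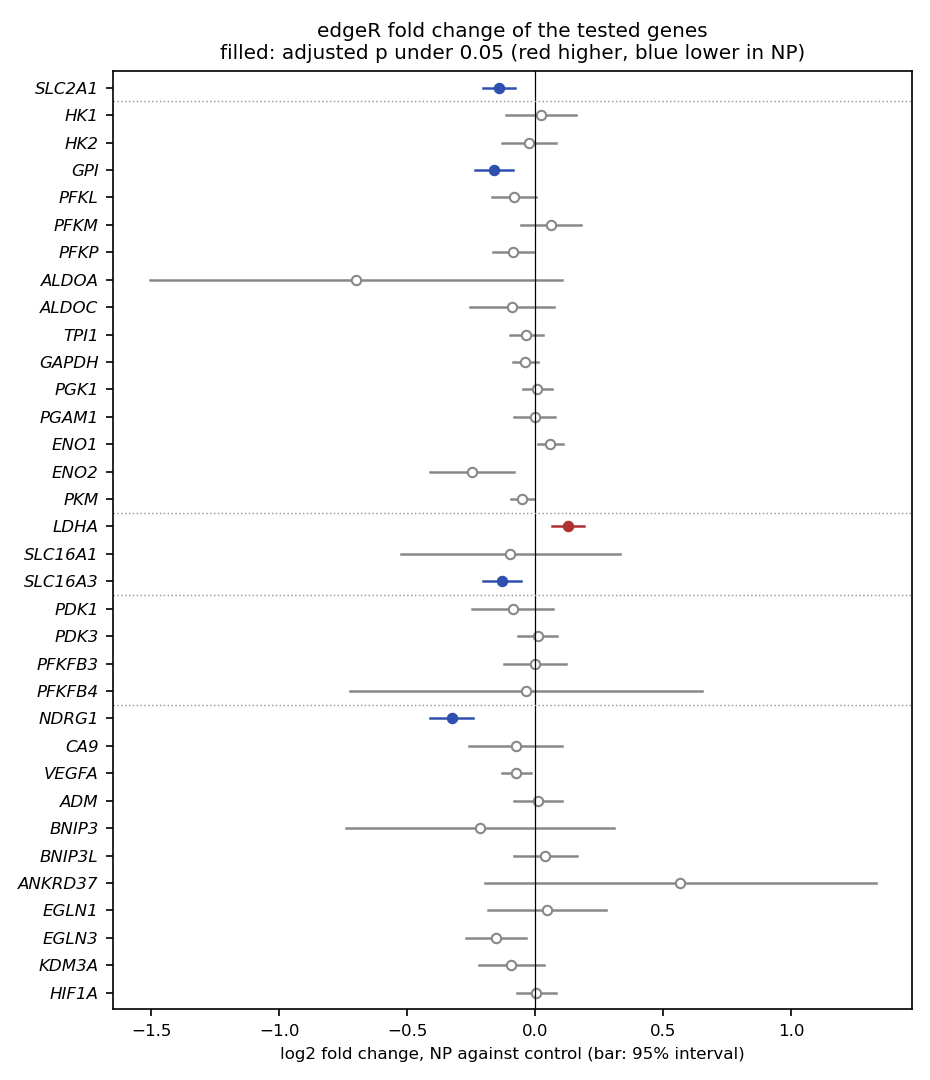
edgeR log2 fold change of NP against control for the 34 tested genes, with 95% intervals, ordered by role; filled points had an adjusted p under 0.05. LDHA at 0.13 is the only filled point to the right of 0, and SLC2A1, GPI, SLC16A3 and NDRG1, at -0.14, -0.16, -0.13 and -0.33, are those to the left.

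None of the 4 flux regulators passed in edgeR, and none had an unadjusted p under 0.05. Over all tested genes 4.06% passed, and before adjustment 8.17% were higher and 6.97% lower at p under 0.05. With shares this low, finding none among 4 genes does not set the flux regulators apart from all tested genes. PDK1 and PDK3 encode kinases that switch off pyruvate dehydrogenase and so hold pyruvate back from the mitochondria. PDK1 was at 37.1 and 36.4 CPM in control and 34.4 and 34.7 CPM in NP, a log2 fold change of -0.09 (adjusted p = 0.673 in edgeR). PDK3 was at 194.6 to 200.4 CPM over all samples, with a log2 fold change of 0.0088 (95% interval -0.068 to 0.085). PFKFB3 and PFKFB4 set the level of fructose 2,6-bisphosphate, the activator of phosphofructokinase. PFKFB3 was at 69.1 and 64.6 CPM in control and 64.3 and 69.8 CPM in NP, with the groups intermixed and a 95% interval of -0.12 to 0.12. PFKFB4 had 22 and 42 counts in control and 27 and 33 in NP, too few to separate the groups.

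Of the 11 HIF pathway genes, NDRG1 fell, 10 did not pass and none rose in edgeR, so that 9.09% were called where 4.06% of all tested genes were. Before adjustment 3 were lower and none higher at p under 0.05, beside 6.97% and 8.17% of all tested genes, and in 5 of the 11 both NP samples lay below both control samples, beside 21.7% of all tested genes. The median log2 fold change was -0.07. NDRG1 encodes a cytoplasmic protein that many cells induce under hypoxia and during differentiation (ENSG00000104419, chr8:133237171-133302022). It had 216.6 and 230.2 CPM in the control samples and 168.2 and 189.0 CPM in the NP samples. The lowest control sample was above the highest NP sample, although the NP samples also differed from each other. Its group mean moved from 223.4 ± 9.59 to 178.6 ± 14.7 CPM (SD, n = 2 each), which is a log2 fold change of -0.33 (SE 0.042, 95% interval -0.41 to -0.24, adjusted p = 3.08e-08 in edgeR). It passed in all 12 alternative settings, with log2 fold changes from -0.41 to -0.24. Per GAPDH count in the same library, NDRG1 was at 0.114 and 0.120 in control and 0.0892 and 0.103 in NP.

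None of the other HIF-regulated stress genes passed in edgeR. VEGFA, the gene of the main angiogenic growth factor, was at 655.2 and 672.2 CPM in control and 636.6 and 624.3 CPM in NP. The groups did not overlap, but the log2 fold change of -0.07 did not pass (adjusted p = 0.161 in edgeR). CA9, a cell-surface carbonic anhydrase that is a common marker of hypoxia, was at 32.4 and 27.3 CPM in control and 30.1 and 26.2 CPM in NP. Its groups overlapped (log2 fold change -0.08, 95% interval -0.26 to 0.11), and 38.5% of its exonic bases lie opposite ARHGEF39, a limit if the counting, whose strand setting is not given in the sources used here, ignored strand. ADM, the gene of the vasodilator peptide adrenomedullin, ranged from 114.8 to 122.5 CPM with overlapping groups (log2 fold change 0.0099).

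BNIP3 and BNIP3L encode mitophagy receptors. BNIP3 had 59 and 48 counts in control and 50 and 39 in NP (log2 fold change -0.22, 95% interval -0.74 to 0.31). BNIP3L was at 64.6 and 62.7 CPM in control and 62.5 and 68.7 CPM in NP, with overlapping groups. ANKRD37, an ankyrin repeat gene induced by HIF, had 18 and 22 counts in control and 41 and 17 in NP, so its log2 fold change of 0.57 rested on NP sample 1. The ratio of its summed counts was 1.5 (exact 95% interval 0.985 to 2.30), and 35.2% of its exonic bases lie opposite UFSP2.

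None of EGLN1, EGLN3, KDM3A and HIF1A passed in edgeR. EGLN3 encodes an oxygen-dependent prolyl hydroxylase that HIF itself induces. It was at 77.3 and 72.1 CPM in control and 68.8 and 65.4 CPM in NP, without overlap, and did not pass (log2 fold change -0.15, SE 0.058, adjusted p = 0.147 in edgeR). EGLN1, the main hydroxylase of HIF-1α, was at 15.1 to 18.5 CPM with overlapping groups. KDM3A, a HIF-induced histone demethylase gene, was at 59.7 and 60.4 CPM in control and 55.5 and 57.1 CPM in NP (log2 fold change -0.09, adjusted p = 0.533 in edgeR). HIF1A was at 213.7 and 218.0 CPM in control and 219.7 and 212.9 CPM in NP. Its groups overlapped, and it did not pass (adjusted p = 0.98 in edgeR). HIF-1α is controlled mainly through protein stability, which RNA counts do not measure.

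Other genes of the same pathways were counted from lists drawn up for this purpose, and their counts are to be read beside the 4.06% called over all tested genes. Of 40 tested genes of glycolysis, gluconeogenesis and pyruvate use outside the set, 2 rose, 1 fell and 37 did not pass in edgeR (7.5% called), with a median log2 fold change of 0.0013. PCK1, which catalyses the entry step of gluconeogenesis, fell from 36.8 and 33.9 CPM to 26.1 and 25.3 CPM, by 0.46 on the log2 scale (SE 0.086, adjusted p = 0.000225). MPC1 and MPC2, which together form the mitochondrial pyruvate carrier, rose by 0.26 and 0.30 on the log2 scale, with adjusted p = 0.0157 and 0.0138. MPC1 has a length of 1546 nt and MPC2 of 2638 nt, within that shortest class of genes. With offsets for gene length MPC1 was at 0.19 and did not pass (adjusted p = 0.101), while MPC2 was at 0.27 and passed (adjusted p = 0.0346, both edgeR). Of 8 tested pentose phosphate genes, H6PD, an enzyme of the endoplasmic reticulum, fell by 0.12 (adjusted p = 0.0433) and 7 did not pass (12.5% called). H6PD did not pass in DESeq2 (adjusted p = 0.173) or with offsets for gene length (adjusted p = 0.12). The adjusted p-values of this paragraph other than that of DESeq2 are from edgeR.

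Of 40 further tested genes known to respond to HIF, 1 rose, 1 fell and 38 did not pass in edgeR (5.0% called, near the 4.06% over all tested genes), and their median log2 fold change was -0.02. IGFBP3, which binds insulin-like growth factors, was at 178.3 and 193.3 CPM in control and at 239.9 and 239.1 CPM in NP. This was a rise of 28.9% (log2 fold change 0.37, SE 0.039, adjusted p = 1.07e-10 in edgeR) that passed in all 12 alternative settings. IGFBP3 and NDRG1 are both induced by hypoxia in many cells, and here they changed in opposite directions. PPFIA4, a liprin gene with 74 and 58 counts in control and 36 and 33 in NP, had a log2 fold change of -0.88 (SE 0.27, adjusted p = 0.0406 in edgeR). Of 15 tested genes of the HIF machinery, 2 rose, 1 fell and 12 did not pass (20.0% called), with a median of 0.03. RBX1 and ELOC encode subunits of the ubiquitin ligase that removes HIF-1α, and they rose by 0.30 and 0.24 on the log2 scale, with adjusted p = 0.0174 and 0.0243 in edgeR. EP300, a coactivator of HIF and of many other factors, fell by 0.17 on the log2 scale (adjusted p = 0.00682 in edgeR, and 0.0743 in DESeq2, where it did not pass). Of the 9 genes named from these lists, PCK1 and IGFBP3 kept their calls when each sample was left out in turn. Without control sample 1 the calls of ELOC, EP300, H6PD, MPC1, MPC2, PPFIA4 and RBX1 were lost (adjusted p from 0.154 to 0.457 in edgeR). Without NP sample 1 those of ELOC, MPC1, PPFIA4 and RBX1 were lost (0.111 to 0.319), and without NP sample 2 those of ELOC, EP300, H6PD, MPC1, MPC2 and PPFIA4 (0.0662 to 0.443).

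**Figure D4:**
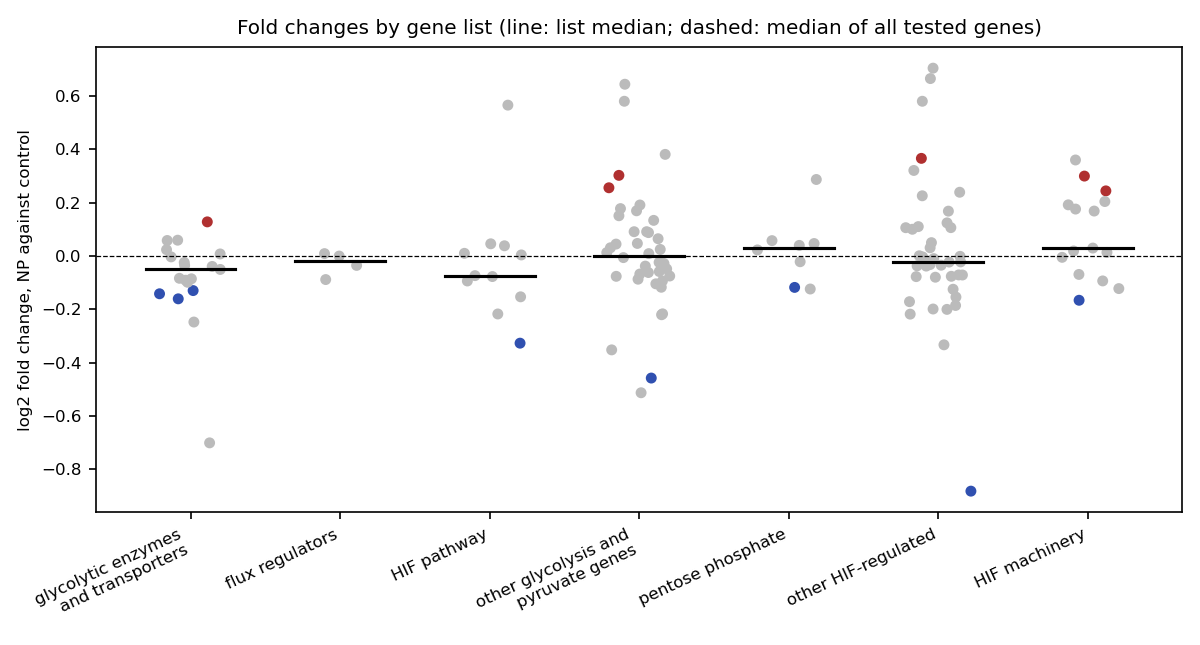
edgeR log2 fold change of every tested gene in the 3 member groups and in the 4 other lists; black bars are list medians, the dashed line is the median of all tested genes, and red and blue points passed as higher and lower in NP. The list medians lie between -0.07 and 0.03, and among the called genes PPFIA4 at -0.88 is the lowest and IGFBP3 at 0.37 the highest.

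The glycolytic enzymes and transporters and the HIF pathway genes thus had similar medians, -0.05 and -0.07, with 4 of 19 (21.1%) and 1 of 11 (9.09%) tested genes called, where 4.06% of all tested genes were called. Whether these groups differed was not tested, and the shares are not matched for level. The 7 tested members no longer than 2933 nt had a median of -0.04, where all genes of that length had 0.043, and the 9 members of at least 8415 nt had a median of -0.09, where all genes of that length had -0.032. With offsets for gene length, SLC2A1, GPI, LDHA and NDRG1 passed, SLC16A3 did not, and GAPDH passed as lower.

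**Figure D5:**
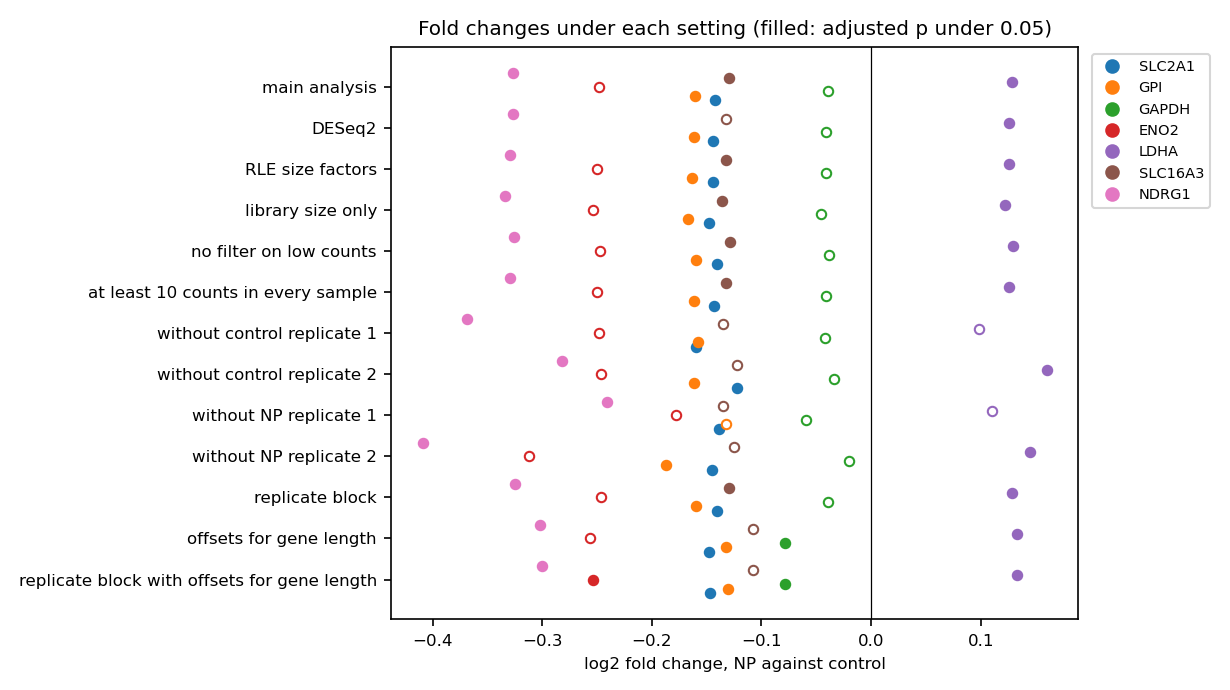
edgeR or DESeq2 log2 fold change of 7 members in the main analysis and the 12 alternative settings; filled points had an adjusted p under 0.05, and ENO2 has no DESeq2 point because DESeq2 gave it no adjusted p. NDRG1 and SLC2A1 are filled in every setting, LDHA is open without control sample 1 and without NP sample 1, and SLC16A3 is open in 7 of the 12 alternatives.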

How the data were processed

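RNA of COLO205 cells was sequenced in 2 control and 2 NP samples. The authors deposited 1 table with counts and FPKM for each sample. The deposited counts are whole reads per gene, not normalized. Processing notes of the submitters list HISAT2, HTSeq and the build GRCh38, without versions, and the annotation release and strand setting were not given in the sources used here. FPKM values, computed by the authors from the same counts and deposited beside them, each equal the count divided by the gene's length in the table and by the sample's total, within 5.1e-13%. The methods name DESeq for the study's own comparison, and speak of 3 parallel experiments, where 2 samples a group were analysed here.

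Groups were taken from the labels, and all 4 samples entered 1 fit without covariates. The filter on low counts was filterByExpr in edgeR 4.0.16 under R 4.3.3, with minimum count 10. Libraries were scaled with TMM (factors 0.9963 to 1.0037), and edgeR's quasi-likelihood test gave p-values, adjusted by Benjamini-Hochberg over 12616 genes. The SE was taken as the absolute log2 fold change over the root of F. CPM are counts scaled by library size and TMM. Low counts carry exact 95% binomial intervals, which like the floor of 3 counts cover counting error only. The biological coefficient of variation was 2.65%, and chi-square per gene between replicates was 1.92 in control and 1.87 in NP, where 1 is counting noise.

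The members and the other gene lists were chosen with earlier results of these data known. All 36 members are named, and from each other list the genes past the threshold, at most 4 with the smallest p. Tried as alternatives were DESeq2 1.42.0, scaling by RLE or by library size only, 2 other filters, each sample left out, a replicate block, offsets for gene length (lowess of log2 deviations on log2 length, span 0.3), and block and offsets together. Exonic overlap came from GENCODE release 29, whose lengths differ from the table's for some genes. A planned comparison of isoenzyme protein sequences was not run.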

Additional observations from a re-analysis of the deposited data

How the results depend on the processing

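Over all genes, 512 were called in edgeR, 190 in DESeq2, and 227 to 443 when a single sample was left out. DESeq2 gave an adjusted p for 4300 genes only. The number of called members was 5, and 2 to 4 when a single sample was left out (3 without control sample 1 and 2 without NP sample 1). With the replicate number as a block (replicate block), 652 genes and 5 members were called, and with offsets for gene length added, 573 genes and 6 members, with ENO2 (-0.254) and GAPDH (-0.0787) added and SLC16A3 lost. Over all tested genes, the deviations of same-numbered samples had a correlation of -0.0031, and the samples were treated as unpaired. A single correlation over all genes cannot show whether some genes deviated together. The median of the glycolytic enzymes and transporters was -0.0682 with length offsets, -0.0683 with the block as well, and -0.0591 to -0.0425 when a single sample was left out. The median of the HIF pathway genes was -0.0802 by library size only, -0.0365 with length offsets, -0.0360 with the block as well, and -0.0729 to -0.0318 when a single sample was left out. No member that was called changed sign in any of the 12 alternatives. Signs turned, always without a call, for ADM (-0.0306 with length offsets, -0.0320 with the block as well), HIF1A (-0.0026 by library size only), PFKFB3 (0.00066 without a filter, 0.0048 with length offsets, 0.0049 with the block as well) and PFKFB4 (0.0080 with the block, 0.0124 with length offsets as well). When a single sample was left out, the log2 fold change ranged over both signs for ADM (-0.0405 to 0.0531), ALDOC (-0.205 to 0.0301), ANKRD37 (-0.0076 to 0.920), BNIP3L (-0.0274 to 0.109), CA9 (-0.195 to 0.0537), EGLN1 (-0.0930 to 0.201), HIF1A (-0.0198 to 0.0251), HK2 (-0.0575 to 0.0124), PDK3 (-0.0114 to 0.0314), PFKFB3 (-0.0569 to 0.0615), PFKFB4 (-0.430 to 0.508), PFKM (-0.0063 to 0.130), PGAM1 (-0.0172 to 0.0088), PGK1 (-0.0302 to 0.0430) and SLC16A1 (-0.556 to 0.580). Why these values moved was not tested, beyond the fewer samples that leaving one out implies. Intervals were wide for ALDOA, ANKRD37, PFKFB4, SLC2A3 and BNIP3, which had few counts, and for SLC16A1, whose control samples differed.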
